A study of Mus musculus with 2 samples.

Results

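Osteoblasts and osteocytes lay down a collagen matrix and then load it with calcium phosphate, and 10 genes of that sequence were followed in the fetal mouse mandible: Sparc, Spp1, Alpl, Tnn, Panx3, Ibsp, Ifitm5, Phex, Dmp1 and Mepe. They were taken by name, as the probe sets that the platform annotation assigns to each gene, out of 19938 genes with a probe set of their own. Of the 10 genes, 9 had such a probe set, 1 each, and 8 were measured, all of them above the detection floor on both arrays. Spp1 is not analysed here, and Mepe lay below the floor on both arrays. RNA came from mandibles at E18.5 (a stage counted in embryonic days), shortly before birth, with 1 array for a wild-type BALB/c sample and 1 for a BALB/c sample that lacked Myf5 and MyoD (both genes null). Both samples thus share strain, tissue and age. Myf5 and MyoD are transcription factors that commit cells to skeletal muscle, and the series asks what muscle contributes to the development of the jaw. How the null alleles were made, how many embryos entered each sample and their sex are not given in the sources used here. Each genotype has 1 array, which allows no test, and every difference below compares these 2 arrays.

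Bone formation proceeds in steps. Preosteoblasts and young osteoblasts secrete type I collagen with SPARC, and their surface alkaline phosphatase (Alpl) splits pyrophosphate, which otherwise blocks mineral growth. Mature osteoblasts add the acidic sialoprotein IBSP, and cells buried as osteocytes make DMP1, PHEX and MEPE, which act on mineral and on phosphate balance. In the jaw, membranous bone forms next to the growing teeth, whose odontoblasts share many of these genes. The members were split along that order into 5 early matrix genes (Sparc, Alpl, Spp1, Tnn and Panx3) and 5 late mineralising genes (Ibsp, Ifitm5, Phex, Dmp1 and Mepe).

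Ibsp, Dmp1, Mepe and Spp1 belong to the SIBLING family of acidic, integrin-binding phosphoproteins, together with the dentin gene Dspp. In RefSeq (assembly GRCm38.p6) the order of protein-coding genes on that chromosome is Dspp, Dmp1, Ibsp, Mepe and Spp1, with no other between them. Windows of 250 bases before the transcription start are shown for Ibsp, for the second annotated start of Dmp1 and for Mepe, because these neighbouring genes differ in what the arrays recorded, and for Tnn, the member that differed in the opposite direction. The sequences are those of RefSeq, GRCm38.p6, read 5′ to 3′ along the gene's strand. Capitals mark the RUNX core TGTGGT, the inverted CCAAT box ATTGG, the E-box CAGCTG and the TATA box TATAAA, each on either strand.
Ibsp, chr5:104299037-104299286, plus strand: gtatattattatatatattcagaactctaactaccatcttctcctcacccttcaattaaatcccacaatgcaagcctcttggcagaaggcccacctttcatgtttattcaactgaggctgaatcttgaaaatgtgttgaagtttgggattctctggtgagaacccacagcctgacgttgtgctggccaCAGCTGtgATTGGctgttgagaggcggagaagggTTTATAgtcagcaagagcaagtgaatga
Dmp1, chr5:104202367-104202616, plus strand: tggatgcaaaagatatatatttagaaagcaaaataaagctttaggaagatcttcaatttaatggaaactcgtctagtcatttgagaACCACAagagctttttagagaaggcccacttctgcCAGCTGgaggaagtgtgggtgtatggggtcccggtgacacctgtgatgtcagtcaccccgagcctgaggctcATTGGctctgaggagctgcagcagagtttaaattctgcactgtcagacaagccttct
Mepe, chr5:104325079-104325328, plus strand: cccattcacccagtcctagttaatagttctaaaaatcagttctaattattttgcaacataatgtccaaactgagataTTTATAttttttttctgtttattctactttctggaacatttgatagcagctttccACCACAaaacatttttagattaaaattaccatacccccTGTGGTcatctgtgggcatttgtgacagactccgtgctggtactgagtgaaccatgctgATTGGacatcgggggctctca
Tnn, chr1:160153576-160153825, minus strand: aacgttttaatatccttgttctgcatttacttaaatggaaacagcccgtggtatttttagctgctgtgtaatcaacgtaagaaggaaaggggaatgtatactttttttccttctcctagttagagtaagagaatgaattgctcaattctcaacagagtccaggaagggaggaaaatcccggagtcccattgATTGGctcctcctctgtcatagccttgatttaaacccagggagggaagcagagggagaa

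The promoter table held 9 members with 12 starts, and Panx3 was not among them. The RUNX core, the letters recognised by the osteoblast factor RUNX2, was present in 3 of the 12 windows, against 14.0% of 32851 windows of the same length. These were the windows of the first start of Spp1, the second start of Dmp1 and the start of Mepe. The first start of Dmp1, which is not shown, and the second start of Spp1 held none. The E-box, of a kind that myogenic factors such as MyoD bind, was present in 5 windows, from Sparc, Alpl, Ibsp and both starts of Dmp1 (13.0% of all windows). The CCAAT box was in 6 windows (33.8% of all windows) and the TATA box in 4 (12.4%). No matches overlapped. The window of Phex and that of Ifitm5 held none of the 4 motifs. A match describes these letters and is not evidence of binding.

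The arrays themselves were alike in scale. The floor, the median of probe sets with an annotated gene, was 6.18 in wild type against 6.19 in the double knockout, and 10393 genes lay above it on at least 1 array. Over these genes the median difference (log2 signal of the double knockout minus that of the wild type, as for all differences here) was 0.098, with quartiles of -0.06 and 0.24. Where a gene had several probe sets above the floor, the differences of its 2 brightest disagreed with an SD of 0.17 over 532 genes, and 95% of these genes lay within 0.38. That spread leaves out animals and hybridisations, and all measured members rest on 1 probe set. Of the 2 targeted genes, Myod1 gave 7.14 in wild type against 6.49 in the double knockout, and Myf5 gave 6.31 against 4.95, which is below the floor. Both are lower as labelled, but whether their probe sets fall inside the deleted sequence is unknown here, so they do not settle the label. Transcripts made in the labelled tissue were above the floor on both arrays, among them Amelx of enamel and Col1a1 of bone and other connective tissue. The 9 skeletal muscle markers all lost at least 2-fold in signal, the actin genes Acta1 (12.20 and 5.64) and Actc1 (12.47 and 5.94) among them, and their summed linear signal was 28922 in wild type against 407 in the double knockout. In whole mandible, fewer cells of a type and less RNA per cell cannot be told apart. Each array took 6 µg of total RNA, so a higher signal is a larger share of that RNA. More of a transcript and less muscle RNA beside it cannot be told apart in such a share.

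Of the 8 measured members, 7 had a higher signal in the double knockout, Sparc by no more than 0.08, and 1, Tnn, had a lower one. Among all measured genes 67.0% were higher. The members' median difference was 0.48. No member was at least 2-fold higher, a size reached by 0.510% of all measured genes, and 1 was at least 2-fold lower, against 2.73% of all measured genes. At 1.5-fold, 2 members were higher (3.07% of measured genes) and 1 was lower (5.11%). With the median difference of measured genes set to 0, the members higher numbered 6 and those at least 1.5-fold higher 0. By that rule 5195 of all 10393 measured genes were higher. Across all genes the split at 1.5-fold was then 187 higher and 656 lower, in place of 319 and 531.

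**Figure D1:**
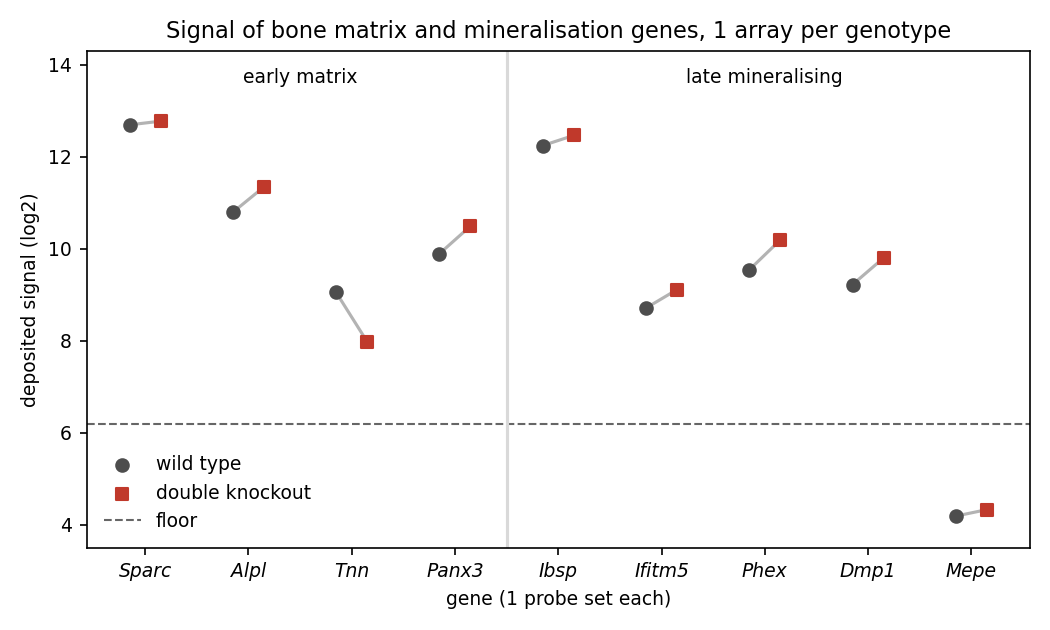
Deposited log2 signal (vertical axis) of the 9 genes with a probe set, on the wild-type array (grey circles) and the double-knockout array (red squares), with the wild-type floor of 6.18 as a dashed line. Sparc and Ibsp lie near the top of the scale with short lines between the arrays, Tnn is the gene whose line runs down, and Mepe lies below the floor on both arrays.

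Among the early genes, Sparc, which encodes a collagen-binding and calcium-binding glycoprotein made from the first steps of bone formation, gave 12.69 in wild type against 12.77 in the double knockout. Its difference of 0.08 was smaller than the spread between probe sets, and 46.9% of measured genes had a lower one. With the median difference of measured genes set to 0 it was -0.02, so no direction is given for Sparc. Type I collagen, the fibre that SPARC binds, was as close on both arrays, with Col1a1 at 12.50 and 12.63.

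Alpl encodes the phosphatase whose loss leaves bone unmineralised. Its signal was 10.79 in wild type against 11.34 in the double knockout. The difference of 0.55, or 1.46-fold higher, exceeded that of 96.2% of measured genes. Panx3 encodes a pannexin channel of osteoblasts and prehypertrophic chondrocytes. It gave 9.89 in wild type against 10.49 in the double knockout, 1.51-fold higher, with a difference of 0.60 that exceeded 97.2% of measured genes.

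Both of these genes are also made by cartilage that is maturing towards bone. In the hypertrophic cartilage list, 3 of 4 genes were measured and all 3 were higher, under each scaling. They included the hypertrophic collagen Col10a1 (6.28 and 6.76, near the floor of 6.18) and the collagenase Mmp13, which osteoblasts also make (11.00 and 11.55). The list's summed linear signal was 2624 in wild type against 3762 in the double knockout, of which Mmp13 alone gave 2046 and 3006. Ihh, the hedgehog ligand of prehypertrophic cartilage, was below the floor on both arrays. The part of hypertrophic cartilage in the Alpl and Panx3 differences was not tested.

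Tnn, which encodes tenascin-W, a matrix protein of periosteum and of cells at the margin of forming bone, ran against the other members. Its signal was 9.05 in wild type against 7.98 in the double knockout. The difference of -1.07, or 2.11-fold lower, was lower than that of all but 2.53% of measured genes, and the wild-type signal lay 2.87 above the floor. Its relative Tnc, the tenascin of many connective tissues, was 0.35 higher, a gene chosen for mention after its value was seen.

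Tendon markers were mostly lower beside Tnn, and matrix genes of bone and connective tissue were mixed. Of the 6 tendon markers 5 were measured and 4 were lower, with a median of -1.57, and the summed linear signal of the list was 2688 in wild type against 1189 in the double knockout. The tendon membrane protein Tnmd gave 9.17 and 6.67 and the thrombospondin Thbs4 9.75 and 7.91, whereas the tendon factor Mkx gave 7.47 and 7.58 and the factor Scx was below the floor on both arrays. In the list of other bone matrix genes, 7 of 10 were higher, against 67.0% of all measured genes. The higher ones included the proteoglycans Lum (9.93 and 10.19) and Ogn (9.83 and 10.14). The lowest were Postn, which encodes the periosteal protein periostin (11.87 and 11.44), and Cthrc1, a secreted collagen triple helix protein (9.18 and 8.80). The part of tendon and periosteal tissue in the Tnn difference was not tested.

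Among the late genes, Ibsp encodes bone sialoprotein, which nucleates mineral. Its signal was 12.24 in wild type against 12.46 in the double knockout, a difference of 0.22 or 1.16-fold. This exceeded the SD of 0.17 between probe sets but lay within the 0.38 that held 95% of genes with several probe sets. Of all measured genes, 72.0% had a lower difference. Among the 25 genes whose mean signal lay between 12 and 14, however, 1 had a larger difference than Ibsp and 8 a larger one than Sparc. In that class the quartiles were 0.02 and 0.12 and no gene was 1.5-fold apart, whereas 3.61% of the 471 genes between 10 and 12 were at least 1.5-fold higher. A gene that is lost cannot be in this class, which is set by the mean of both arrays, so it holds no muscle gene with a strong loss. Whether the signals of Sparc and Ibsp were limited by the array was not tested.

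**Figure D2:**
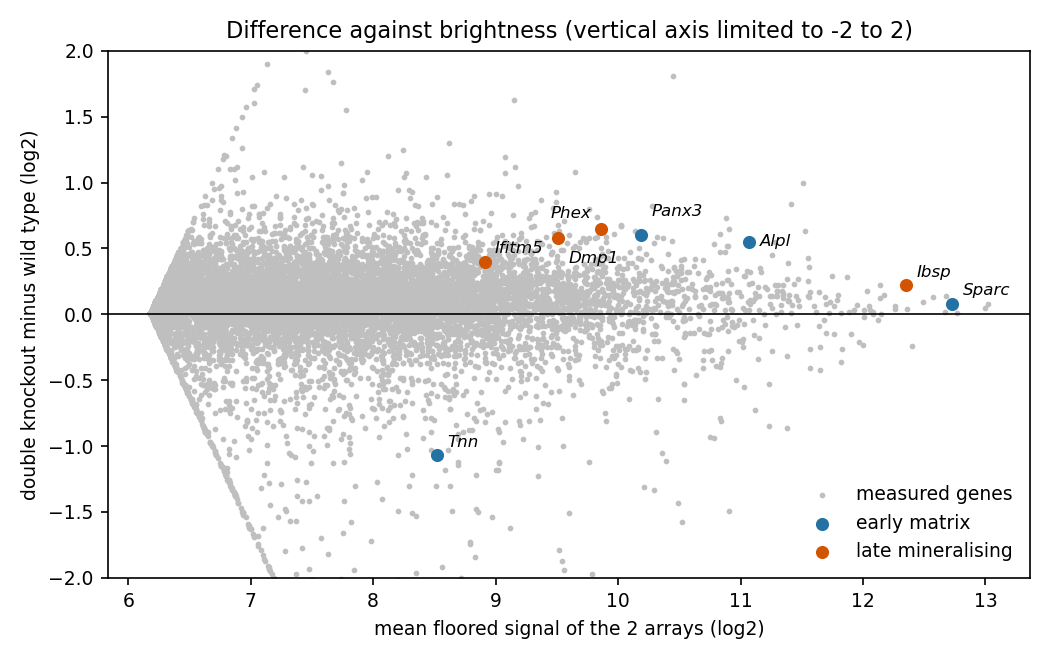
Difference between the arrays (vertical axis, log2) against the mean floored signal (horizontal axis, log2) for 10393 measured genes in grey, with early members in blue and late members in orange; 124 genes lie outside the plotted range. Alpl, Panx3, Phex and Dmp1 lie in the upper part of the cloud and Sparc and Ibsp at its narrow bright end. Tnn lies in its lower part, with 2.53% of measured genes lower.

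Ifitm5 encodes BRIL, a small membrane protein of osteoblasts that are mineralising. It gave 8.71 in wild type against 9.11 in the double knockout, 1.32-fold higher, and its difference of 0.40 exceeded 90.8% of measured genes.

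Dmp1 encodes dentin matrix protein 1, an acidic phosphoprotein of osteocytes and odontoblasts. Its signal was 9.22 in wild type against 9.80 in the double knockout. The difference of 0.58, 1.49-fold, exceeded 96.8% of measured genes. Phex encodes a membrane peptidase of osteoblasts and osteocytes whose loss causes phosphate wasting. It lay with Alpl, Panx3 and Dmp1 among the members with the largest positive differences. Its signal was 9.54 in wild type against 10.19 in the double knockout, 1.57-fold higher, with a difference of 0.65 that exceeded 97.9% of measured genes.

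Phex is X-linked, and the arrays differed in sex-linked transcripts. Xist, the RNA of the inactive X chromosome, gave 10.87 in wild type against 10.22 in the double knockout. The Y-linked genes Eif2s3y (2.38 and 6.55) and Uty (2.43 and 6.20) passed the floor only in the double knockout, Kdm5d was below it on both (3.42 and 5.27), and Ddx3y is not analysed here. The 322 measured X-linked genes had a median difference of 0.07, and 196 of them were higher. Over all measured genes the median was 0.098, and 67.0% were higher. The part of sex in the Phex difference was not tested.

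Mepe encodes an osteocyte phosphoglycoprotein that restrains mineralisation. Its deposited values were 4.19 in wild type against 4.33 in the double knockout, both below the floor, so it gives no difference here. Ibsp, next to it on the chromosome, was measured, as were Dmp1 and Dspp of the same run of genes. Dspp, which marks odontoblasts, was 1.75-fold higher (9.06 and 9.87). Of the 5 SIBLING genes, 3 could be measured, and their differences were 0.22 for Ibsp, 0.58 for Dmp1 and 0.81 for Dspp. That of Ibsp lay within the 0.38 that held 95% of genes with several probe sets. Among all measured genes 67.0% had a difference above 0.

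Odontoblasts express Dmp1 and Phex as well as Dspp, and tooth genes differed in the same direction. All 8 genes of the odontoblast and ameloblast list were higher, under each scaling, with a median of 0.33. The summed linear signal was 11116 in wild type against 13825 in the double knockout, and none of the 8 was below the floor. The largest differences were those of the enamel protease Mmp20 (7.96 and 8.78) and Dspp. The part of tooth tissue in the differences of the late genes was not tested.

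**Figure D3:**
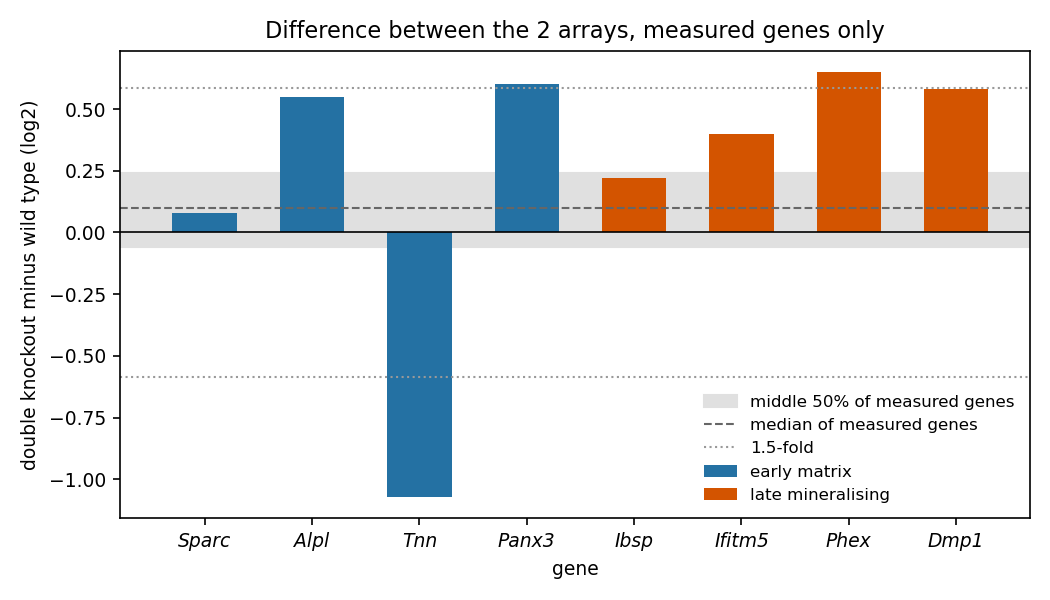
Difference between the arrays (log2, double knockout minus wild type) for the 8 measured members, early genes in blue and late genes in orange, with the median (0.098) and the middle 50% of all measured genes in grey and the 1.5-fold lines dotted. Bars of Alpl, Panx3, Ifitm5, Phex and Dmp1 rise above the grey band, Sparc and Ibsp end inside it, and Tnn runs below it.

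The ranges of the early and late genes overlapped. The 4 measured early genes had a median difference of 0.32 and ranged from -1.07 to 0.60, and the 4 measured late genes had a median of 0.49 and ranged from 0.22 to 0.65. The late median exceeded the early one by 0.17, with no measure of the error of that gap. Of the 16 pairs of a late and an early gene, the late gene had the larger difference in 11. The sign of the gap changed with the early genes included: without Tnn or without Sparc the early median was 0.55 and the gap -0.06, and without Panx3 or without Alpl they were 0.08 and 0.41. Leaving out any of the 4 late genes gave gaps of 0.09 to 0.26.

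The order of the differences cut across the split. From the lowest it ran Tnn, Sparc, Ibsp, Ifitm5, Alpl, Dmp1, Panx3 and Phex. The 4 largest positive differences, from early and late genes alike, lay within 0.10 of each other and could not be ranked at this spread. Ifitm5 lay 0.18 above Ibsp and 0.15 below Alpl. The step of 1.15 between Tnn and Sparc was the 1 step larger than 0.38.

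The wider bone programme was described with 7 further lists holding 73 genes, of which 65 were measured. Of these 49 were higher in the double knockout and 16 lower, with a median of 0.23, while 67.0% of all measured genes were higher with a median of 0.098. With the latter median set to 0, 43 of the 65 were higher, as were 5195 of all 10393 measured genes. None of the 65 was 2-fold apart in either direction, while 0.510% of all measured genes were higher and 2.73% lower by that size. By 1.5-fold or more, 7 were higher and 0 were lower, against 3.07% and 5.11% of all measured genes.

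All 7 measured osteoblast transcription factors were higher as deposited, and 6 with the median difference set to 0 by either rule. Their median difference was 0.40. Msx2, a homeobox factor of skull and tooth progenitors, gave 7.85 and 8.52, and Dlx3, which acts in bone and tooth, gave 8.11 and 8.73; both were over 1.5-fold higher. Dlx6, a patterning factor of the lower jaw, gave 7.02 and 7.60. Sp7, the factor that osteoblasts cannot form without, gave 8.80 and 9.20. Runx2 is not analysed here.

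The 13 measured genes of type I collagen and its processing stayed close to the median of all genes, with a median difference of 0.13. Of them 10 were higher, against 67.0% of all measured genes, and none was 1.5-fold apart. The procollagen protease Bmp1 (10.33 and 10.62) and the collagen chaperone Serpinh1 (9.69 and 9.92) were at the upper end, and Col5a1, a minor fibril collagen, was at the lower (8.69 and 8.47). Phosphate and pyrophosphate genes were more mixed, with 5 of 9 higher. Their median of 0.06 turned to -0.04 with the median of measured genes set to 0. The phosphate exporter Xpr1 gave 8.11 and 8.60, the pyrophosphate transporter gene Ank 8.94 and 9.30 and the sphingomyelinase Smpd3, needed for mineralisation, 9.28 and 9.54. Anxa5, an annexin of matrix vesicles, gave 11.24 and 11.07. The largest difference in this list, 0.49, was within the spread between probe sets of that of Alpl.

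Of the 7 osteocyte genes, 6 were higher, under each scaling, with a median of 0.42. Sost, the Wnt inhibitor of osteocytes, gave 6.58 and 7.23 and was 1.57-fold higher, though it lay close to the floor. Ptprz1, a receptor phosphatase, gave 8.03 and 8.57, the actin-capping gene Capg 7.95 and 8.44, and the membrane protease Mmp14 10.41 and 10.68. In the other bone matrix list, 7 of 10 measured genes were higher, 6 and 5 with the median difference of probe sets or of measured genes set to 0. Osteomodulin (Omd), a keratan sulfate proteoglycan of bone, was 1.79-fold higher (6.74 and 7.58), and the proteoglycan Bgn gave 11.91 and 11.95. Bglap, the osteocalcin gene, is not analysed here, nor are its copies Bglap2 and Bglap3.

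Of 13 signals and receptors of osteoblasts, 11 were higher under each scaling, with a median of 0.41. The vitamin D receptor gene Vdr was 1.80-fold higher (9.07 and 9.92) and the secreted Wnt inhibitor Dkk1 1.67-fold (9.46 and 10.20). The fibroblast growth factor receptors Fgfr2 (9.62 and 10.17) and Fgfr1 (10.31 and 10.59) differed by less. While 67.0% of all measured genes were higher, 3 of the 6 integrins that bind the RGD sequence of sialoproteins were. They were the alpha v subunit Itgav (9.86 and 10.33) and its partners Itgb3 (8.37 and 8.96) and Itgb5 (10.07 and 10.47).

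Itgb3 is also a defining integrin of osteoclasts, and osteoclast markers were higher too. All 7 measured of 8 were higher under each scaling, with a median of 0.84, and Calcr was below the floor on both arrays. The fusion gene Dcstamp gave 7.40 and 8.42 and the proton pump subunit Atp6v0d2 9.11 and 10.19. The summed linear signal of the list was 8305 in wild type against 13268 in the double knockout. The part of osteoclasts in the Itgb3 difference was not tested.

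**Figure D4:**
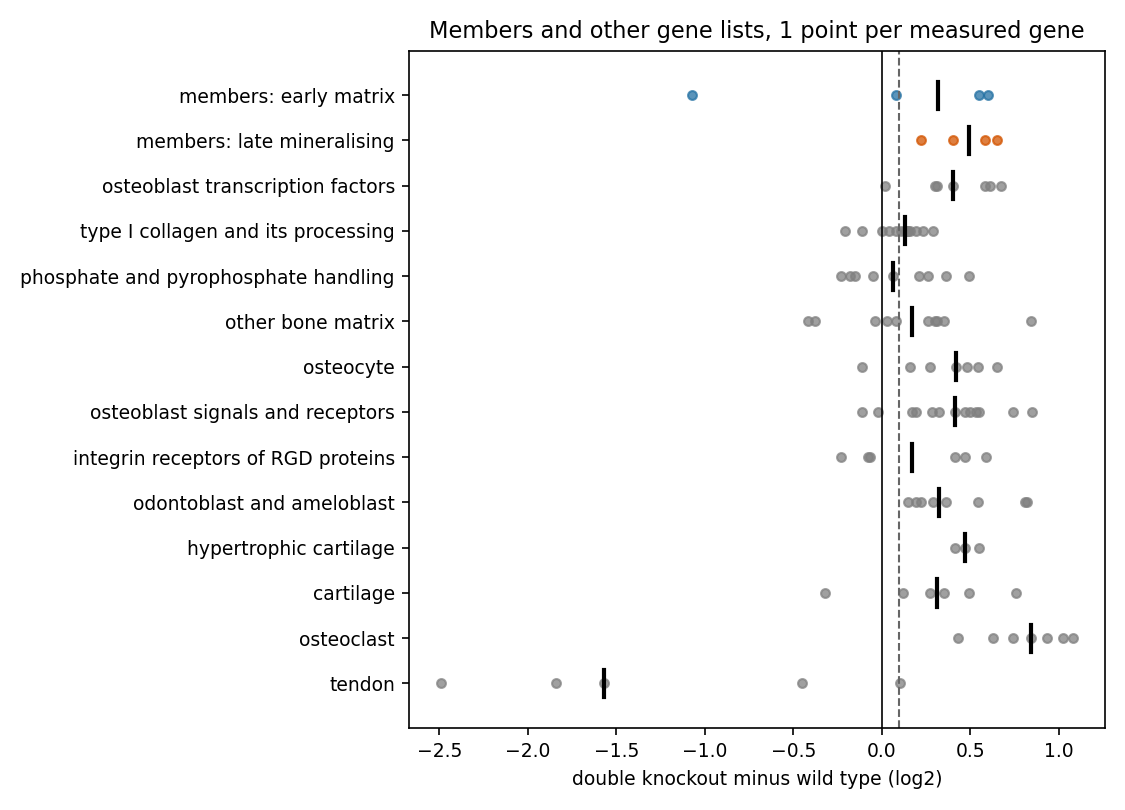
Difference between the arrays (horizontal axis, log2) for each measured gene of the members and of 12 other lists, with black bars at list medians and the median of all measured genes (0.098) dashed. Medians of the late members (0.49), hypertrophic cartilage (0.47), osteocyte genes (0.42), osteoblast signals (0.41) and osteoblast transcription factors (0.40) lie together. Those of tooth genes (0.33), early members (0.32) and cartilage (0.31) are lower. Other bone matrix (0.17), integrins (0.17), collagen processing (0.13) and phosphate genes (0.06) lie nearer the dashed line. Osteoclast genes (0.84) lie above all of these and tendon genes (-1.57) below.

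Among markers of other tissues, cartilage had a median of 0.31, with Sox9, the chondrocyte factor, at 8.37 and 9.13 and Col2a1 at 8.77 and 9.26. Of the 9 cartilage genes 6 were measured, and 3 lay below the floor on both arrays. Of the 6, 5 were higher and 1, Acan, was lower (7.64 and 7.32), while 67.0% of all measured genes were higher. The 4 epithelial genes had a median of 0.52, led by Epcam (7.21 and 8.08) and Cdh1 (8.49 and 9.18). Endothelial genes had a median of 0.03, with Tek at 7.92 and 7.44 and Kdr at 7.87 and 8.11. Macrophage genes had a median of -0.15, although Cd68 (8.94 and 9.80) and Csf1r (8.90 and 9.48), both also made by osteoclasts, were higher. The 5 measured housekeeping genes had a median of 0.14, among them Ppia (11.48 and 11.65) and Hprt (7.94 and 7.80). Differences of the members' size thus also occurred in lists of other tissues.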

How the data were processed

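Total RNA (6 µg) from 1 mandible sample per genotype was labelled with biotin and hybridised to an Affymetrix array, per the labels' protocols. The authors deposited 1 log2 value per probe set for 35557 probe sets. Base 2 was read from the range of values, 1.42 to 13.35. MAS5 is named, without a version, in the submitters' processing notes. Background correction, normalization between arrays and genome build are not given in the sources used here. The 2% trimmed means of the linear values had a ratio of 1.02, within the 5% set as the limit for comparing the arrays as deposited.

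Genes were named from the platform annotation, through the 21789 probe sets with 1 gene. Of several probe sets of a gene, the one brightest on average (linear signal) was used. Lower values were set to the floor, and a gene counted as measured if either array exceeded it. Detection calls were not used. Calls were 2-fold and 1.5-fold. The 2-fold call, but not the 1.5-fold call, was tested on simulated data. The simulated differences were larger than that of any member, so the test does not bear on differences of the members' size. Summed signals add the deposited values on the linear scale. Python 3.11.15, numpy 2.4.6 and pandas 2.3.3 were used. The number of arrays limits the precision.

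The members and lists were chosen with earlier results of these data known. Named are all 10 members, the 3 members of each bone list with the largest differences and its brightest member, the 2 with the largest differences of each other list, the sex-linked genes, Myf5 and Myod1. The named genes outside this rule (Ihh, Scx, Mkx, Calcr, Tnc, Lum, Ogn, Amelx, Acan, Fgf23) were chosen after their values were seen.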

Additional observations from a re-analysis of the deposited data

How the results depend on the processing

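Scaling, floor and the summary of probe sets left every measured member within 0.10 of its value as reported, with ranges of 0.45 to 0.55 for Alpl, 0.50 to 0.60 for Panx3, 0.56 to 0.65 for Phex, 0.48 to 0.58 for Dmp1, 0.30 to 0.40 for Ifitm5, 0.12 to 0.29 for Ibsp, -0.02 to 0.18 for Sparc and -1.17 to -1.07 for Tnn. Mepe, below the floor as reported, differed by 0.09 when the 25th percentile was the floor and by 0.14 when none was set. The members at least 1.5-fold higher numbered 1 with the median difference of probe sets set to 0 or after quantile normalisation; they numbered 0 when measured genes were centred on a median difference of 0, an alternative chosen after seeing the data, under which 187 of all genes were 1.5-fold higher. The late minus early median difference was -0.06 without Tnn or Sparc (early median 0.55) and 0.41 without Panx3 or Alpl (early median 0.08), and 0.09 to 0.26 without each of the measured late genes in turn; leaving out Sparc, Alpl, Ibsp, Ifitm5 or Dmp1 was chosen after seeing the data; counting Spp1 as late changed nothing, since it has no value. With the floor at the 75th percentile, which tests fewer genes, 134 genes were lower and 20 higher by 2-fold, and 255 lower and 136 higher by 1.5-fold; without a floor, 431 were lower by 2-fold and 505 higher by 1.5-fold. List medians that moved did so with the floor, which sets the genes measured and the size of bounds. At the 25th percentile they were -1.32 for tendon, -6.53 for muscle, -0.39 for macrophage and 1.5 for sex-linked genes. At the 75th they were 0.41 for integrins, 0.49 for cartilage, -0.92 for tendon, -3.90 for muscle, 0.57 for macrophage, 0.34 for epithelium and -0.65 for sex-linked genes. Without a floor they were 0.12 for cartilage, -1.32 for tendon, -6.53 for muscle, -0.39 for macrophage and 2.81 for sex-linked genes. In all, 273 of 307 recomputed values stayed within the SD between probe sets or, for counts, within 1.5 times. No paired analysis was possible because each genotype has 1 array, and for the same reason no replicate could be left out.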
